A study of Homo sapiens with 12 samples.

Results

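The cholesterol and fatty acid synthesis genes described here are 42 genes listed by function: enzymes of both pathways, the proteins that control them and a few carriers and partners. They were found by gene symbol, through Ensembl identifiers without version numbers, for 41 of the 42 among 57820 gene identifiers. ACACA was not matched and its expression was not analysed here, though its promoter is in the promoter counts below. Of the 41, 39 had enough counts to be tested. THRSP and ME1 did not, with 0 to 1 counts in each of the 12 libraries.

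The data are RNA sequencing of bulk cultures of G401, a human rhabdoid tumour line with the labelled genotype SMARCB1(-/-). SMARCB1 is a core subunit of the SWI/SNF chromatin remodelling complexes, and its loss defines rhabdoid tumours. The cells carried a doxycycline-induced transgene, either GFP (the control) or SMARCB1. Both kinds were then given dBRD9-A, a compound that causes degradation of BRD9, or its solvent DMSO, over 24 hours. BRD9 is a subunit of the non-canonical SWI/SNF complex. The 2 transgenes and 2 treatments gave 4 groups of 3 replicates, referred to below as GFP or SMARCB1 cells in DMSO or with dBRD9-A. All 4 groups express an induced transgene in the same line, and no parental, uninduced group is among the samples. The labels do not say whether replicates were separate cultures, so p-values measure the spread between these libraries, which may be technical.

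Libraries held 34974281 to 58536059 counts assigned to genes. SMARCB1 mRNA had 0 to 2 counts in each GFP library and 53033 to 110893 counts in each SMARCB1 library. In SMARCB1 cells it averaged 1870 counts per 1000000 in DMSO (SD 59.4) and 1310 with dBRD9-A (SD 27). The SMARCB1 groups thus differed in transgene mRNA as well as in treatment, and the part of this difference in the results was not tested. VIM, KRT8 and KRT18, intermediate filament genes of rhabdoid cells, averaged 1270 to 2530 counts per 1000000 (CPM) over the groups. They differed with SMARCB1, from 1320 to 2310 CPM for VIM, 2310 to 1900 CPM for KRT8 and 2530 to 1690 CPM for KRT18 in DMSO, and from 1270 to 2240, 2390 to 1900 and 2470 to 1680 CPM with dBRD9-A. Of 11 markers of blood, endothelium, fat and liver cells that were matched, VWF had 22 to 50 counts in SMARCB1 and 0 to 5 in GFP libraries, CDH5 had 3 to 10 and 0, PTPRC, CD3E, ADIPOQ, LEP and TTR were at 0 in all 12 libraries, and the others had at most 6 counts in any library. The part of VWF and CDH5 expressing cells in the results was not tested. In bulk samples, a change in the share of cells that express a gene and a change in RNA per cell cannot be told apart.

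Cholesterol is built from acetyl-CoA through mevalonate, squalene and lanosterol. Fatty acids are built from the same precursor by carboxylation and chain extension, followed by desaturation and elongation. Both pathways are controlled by the SREBP transcription factors (genes SREBF1 and SREBF2). SCAP escorts them to the Golgi for cleavage when sterols are low, and INSIG1 and INSIG2 hold them in the endoplasmic reticulum when sterols are high. The cleaved factors bind sterol regulatory elements, commonly next to sites of the factor NF-Y, whose box reads CCAAT.

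Promoter sequences from RefSeq (build GRCh38.p14, 250 bases before to 50 bases after a listed gene start) were available for 38 of the 42 genes. Windows of 100 bases that lie upstream of the start are shown for 5 genes described below, written 5′ to 3′ on the gene's strand. Their position was set for each gene, and each window holds marked matches. They begin 100 (MID1IP1), 160 (SREBF2), 190 (STARD4), 130 (DHCR7) and 240 (SCD) bases before the start. Only that of MID1IP1 reaches the start. Capitals mark the sterol regulatory element letters TCACNCCAC and the NF-Y box CCAAT on either strand, the latter read as ATTGG when reversed. MID1IP1 and SREBF2 are shown because both hold the first of these motifs, and STARD4, DHCR7 and SCD because they are among the 5 largest falls with SMARCB1 described below. FADS2 and FADS1, also among these falls, are not shown. The only CCAAT match in FADS2 lies after the gene start, so the windows shown do not stand for all falling genes.
MID1IP1, chrX:38801359-38801458, plus strand: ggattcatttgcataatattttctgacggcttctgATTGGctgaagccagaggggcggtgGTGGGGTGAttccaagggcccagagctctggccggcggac
SREBF2, chr22:41832945-41833044, plus strand: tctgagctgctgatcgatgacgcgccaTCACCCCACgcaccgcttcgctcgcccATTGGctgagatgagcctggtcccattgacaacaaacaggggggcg
STARD4, chr5:111512626-111512725, minus strand: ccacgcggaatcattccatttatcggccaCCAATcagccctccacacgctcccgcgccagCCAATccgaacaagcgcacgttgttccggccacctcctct
DHCR7, chr11:71448424-71448523, minus strand: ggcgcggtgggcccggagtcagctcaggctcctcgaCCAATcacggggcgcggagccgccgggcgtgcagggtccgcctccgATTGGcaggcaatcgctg
SCD, chr10:100346993-100347092, plus strand: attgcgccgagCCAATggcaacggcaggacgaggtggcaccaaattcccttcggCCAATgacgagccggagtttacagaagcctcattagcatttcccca
The letters TCACNCCAC occurred in a listed promoter of 3 of the 38 genes (7.89%), MID1IP1, SREBF2 and ACSL1, against 1.39% of 27305 genes in the table. They occurred in 0 of the 15 cholesterol synthesis enzymes with a promoter there. In MID1IP1 the match starts 40 bases before the gene start on the opposite strand and reads GTGGGGTGA in the line above. CCAAT occurred in 29 of the 38 (76.3%, against 39.7% of all genes). Among the 15 cholesterol synthesis enzymes with a promoter in the table, 13 held it and 10 held it at least 2 times (66.7%, against 12.9%). The E-box CACGTG, which SREBP proteins also bind, occurred in 5 of the 38 (13.2%, against 8.77%). These matches describe letters in a window and are not measured binding sites. Only these exact letters were searched, so the lack of a match does not show the lack of a site.

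The first question was how SMARCB1 re-expression changed these genes. In SMARCB1 cells in DMSO the enzymes of cholesterol synthesis were lower as a group, by moderate amounts, than in GFP cells in DMSO. The fatty acid desaturase genes SCD, FADS1 and FADS2 and the sterol carrier gene STARD4 were lower by more. A smaller set was higher, led by MID1IP1 and ACSL4, which were near or at 0 in GFP cells. In edgeR's quasi-likelihood test 36 of the 39 genes passed an adjusted p of 0.05, 9 higher and 27 lower. SMARCB1 changed 65% of all 15750 genes tested, with 33.5% higher and 31.6% lower. The median log2 fold change was -0.239 for the 39 genes and -0.005 for all genes tested.

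Directions are relative to the bulk of genes, since library sizes were scaled with edgeR's TMM factors, which take most genes as unchanged. Scaling to the ERCC spike-ins (synthetic RNAs added from outside) shifted all genes in this comparison by a median of 0.17 on the log2 scale. Of the 18 cholesterol enzymes 8 were then lower and 2 higher, against 16 and 1 with TMM.

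All 7 listed enzymes between acetyl-CoA and farnesyl pyrophosphate fell with SMARCB1 in DMSO, with log2 fold changes of -0.48 to -0.13, and with spike-in scaling MVK turned to 0.04. HMGCS1, the synthase that makes HMG-CoA, was at 96.5, 94.1 and 94.4 CPM in the GFP libraries and 77.6, 75.4 and 79.5 CPM in the SMARCB1 libraries (log2 fold change -0.29, SE 0.03, adjusted p 1.26e-07); with spike-in scaling it was at -0.12 (adjusted p 0.115). IDI1, which isomerises the 5-carbon building block, had the largest fall of the 7, from 103, 108 and 101 CPM to 76.3, 72.4 and 74.0 CPM (log2 fold change -0.48, SE 0.03, adjusted p 1.21e-09). Replicates of the groups did not overlap for either gene. ACAT2, which joins 2 acetyl-CoA units, and FDPS, which makes farnesyl pyrophosphate, fell by 0.45 and 0.43 on the log2 scale. PMVK, MVD and MVK, which turn mevalonate into isopentenyl pyrophosphate, had log2 fold changes of -0.35, -0.24 and -0.13. MVD was at -0.07 with spike-in scaling (adjusted p 0.532). MVK did not pass the DESeq2 Wald test (adjusted p 0.0561), and 2 of 12 fits that left out 1 library lost it, with an adjusted p up to 0.106 without SMARCB1 DMSO replicate 2.

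Of the 11 genes for squalene and sterol steps, 9 fell, 1 rose and 1 did not pass the test in DMSO, and with spike-in scaling EBP turned to 0.01. DHCR7, the reductase that forms cholesterol in the last step of one branch, was at 72.2, 74.3 and 74.0 CPM in GFP libraries and 45.2, 44.8 and 44.4 CPM in SMARCB1 libraries. Its log2 fold change of -0.71 (SE 0.03, adjusted p 1.03e-12) was the largest fall among the cholesterol enzymes. MSMO1, SQLE and CYP51A1 had log2 fold changes of -0.40, -0.36 and -0.35. MSMO1 and CYP51A1 remove methyl groups from lanosterol-type sterols, and SQLE is the epoxidase that acts on squalene. The 5 smaller falls were in LSS (-0.26), FDFT1 (-0.24), NSDHL (-0.24), HSD17B7 (-0.20) and EBP (-0.16), all given as log2 fold changes. None of these 5 passed with spike-in scaling, where the first 4 were at -0.09, -0.07, -0.06 and -0.03, and HSD17B7 and EBP each lost the call in 2 of 12 fits that left out 1 library, with adjusted p up to 0.102 and 0.0827 without SMARCB1 DMSO replicate 3.

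SC5D, the desaturase of the sterol ring, went against this group. It was at 18.3, 18.7 and 20.0 CPM in GFP libraries and 25.0, 25.0 and 25.2 CPM in SMARCB1 libraries, so that the groups did not overlap (log2 change 0.40, SE 0.05, adjusted p 2.38e-06). TM7SF2, a sterol reductase, differed by 0.19 on the log2 scale without passing the test (SE 0.10, adjusted p 0.0886), and its replicates overlapped. Its counts can include reads of VPS51, which overlaps it on the same strand in GENCODE 29.

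**Figure D1:**
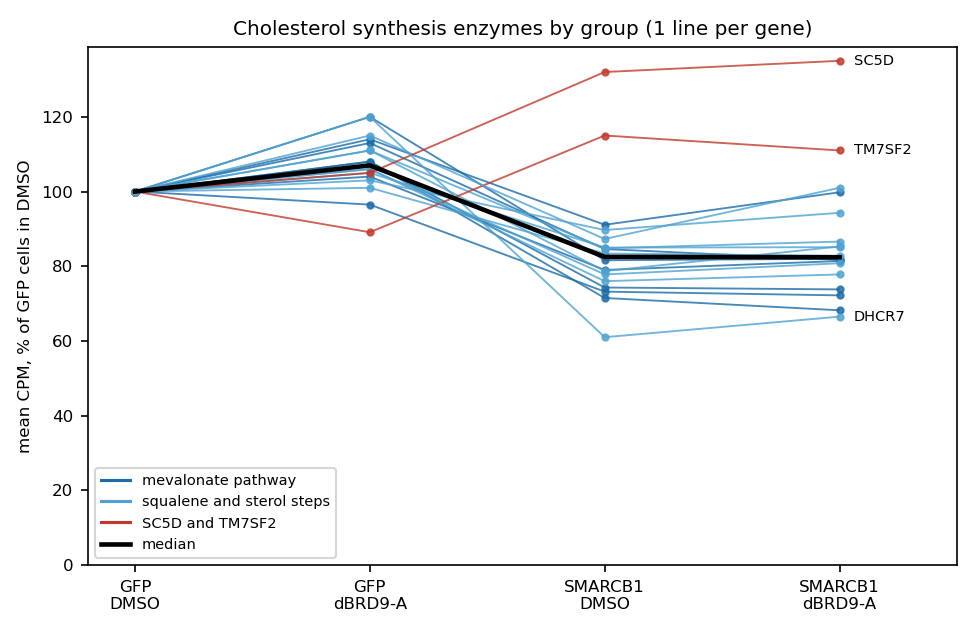
Mean CPM of each of the 18 cholesterol synthesis enzymes (1 line per gene) in the 4 groups, as a percent of its mean in GFP cells in DMSO. The median (black) lies at 107% in GFP cells with dBRD9-A and at 82.5% and 82.4% in the SMARCB1 groups, with SC5D and TM7SF2 (red) above 100% there.

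Genes for SREBP control did not move together with SMARCB1. INSIG1, itself a classical SREBP target, fell from 42.3, 39.4 and 41.0 CPM to 31.2, 26.9 and 29.7 CPM, with no overlap (log2 fold change -0.49, SE 0.05, adjusted p 4.75e-08). INSIG2 rose from 4.83, 4.94 and 5.08 CPM to 6.59, 6.17 and 5.85 CPM, also without overlap (0.32, SE 0.10, adjusted p 0.00759). SREBF1 rose from 104, 108 and 103 CPM to 125, 122 and 122 CPM (0.22, SE 0.04, adjusted p 0.000259). The gene contains MIR33B and MIR6777 on the same strand, and a gene total does not tell its SREBP-1a and SREBP-1c transcripts apart. SCAP fell from 74.0, 76.3 and 73.9 CPM to 65.1, 65.1 and 66.4 CPM (-0.19, SE 0.04, adjusted p 0.000147), a call that was lost with spike-in scaling (-0.02, adjusted p 0.837). SREBF2 was at 61.9, 69.4 and 60.0 CPM in GFP libraries and 68.2, 67.8 and 67.5 CPM in SMARCB1 libraries, which overlap. Its change of 0.09 (SE 0.05) did not pass the test (adjusted p 0.122), but with spike-in scaling it was 0.26 (adjusted p 0.00418).

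STARD4, a carrier that moves sterols between membranes and a known SREBP-2 target, had the largest fall of the 39 genes. It was at 56.4, 61.6 and 59.9 CPM in the GFP DMSO libraries and at 10.9, 10.8 and 10.4 CPM in the SMARCB1 DMSO libraries. The log2 fold change was -2.47 (SE 0.05, adjusted p 1.37e-17), to a level 0.18 times that of GFP cells. STARD4 overlaps STARD4-AS1 on the opposite strand.

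In the fatty acid branch both supply genes tested and the synthase fell. ACLY and ACSS2, which make acetyl-CoA from citrate and acetate, had log2 fold changes of -0.27 (SE 0.03) and -0.34 (SE 0.05), which did not pass with spike-in scaling (adjusted p 0.186 and 0.0683). FASN, the fatty acid synthase, fell from 309, 321 and 314 CPM to 234, 232 and 251 CPM (-0.39, SE 0.05, adjusted p 4.05e-06). ACACB, the mitochondrial acetyl-CoA carboxylase, was at 4.40 ± 0.22 CPM in GFP cells and 4.39 ± 0.411 CPM in SMARCB1 cells (SD, n = 3) and did not pass the test (adjusted p 1).

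The desaturases held some of the larger changes. SCD, which puts the first double bond into stearate, was at 1270, 1300 and 1270 CPM in GFP libraries. It fell to 571, 574 and 589 CPM in SMARCB1 libraries (log2 fold change -1.14, SE 0.03, adjusted p 2.14e-15). FADS2 and FADS1, the desaturases of polyunsaturated fatty acids, lie next to each other and overlap on opposite strands in GENCODE 29, and FADS2 overlaps FEN1 on the same strand. FADS2 fell from 134, 131 and 130 CPM to 64.2, 62.1 and 64.3 CPM (-1.05, SE 0.03, adjusted p 7.58e-15). FADS1 fell from 247, 255 and 245 CPM to 138, 141 and 138 CPM (-0.84, SE 0.03, adjusted p 5.84e-14). In none of these 3 genes did the groups overlap.

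The other desaturase, SCD5, rose instead of falling. It was at 9.64, 9.38 and 10.1 CPM in GFP libraries and 20.5, 17.9 and 18.0 CPM in SMARCB1 libraries (log2 fold change 0.95, SE 0.07, adjusted p 6.5e-10). Among the elongases, which lengthen fatty acids by 2 carbons, ELOVL1 (-0.28, SE 0.04) and ELOVL6 (-0.14, SE 0.05) fell, but with spike-in scaling neither passed and ELOVL6 turned to 0.03 (adjusted p 0.149 and 0.731). ELOVL5 had a small rise of 0.08 (SE 0.03, adjusted p 0.0183), which was lost in 3 of the 12 fits that each left out 1 library.

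MID1IP1, a regulator that promotes polymerisation of acetyl-CoA carboxylase, had 0 counts in all 6 GFP libraries. It was at 14.6, 12.4 and 13.3 CPM in SMARCB1 cells in DMSO, from 492 to 775 counts per library, which is at least 185-fold above the floor of 3 counts per library in GFP cells (adjusted p 3.53e-13). The floor was taken at the shallowest of the 3 GFP libraries and covers counting error only. MID1IP1 passed the filter on low counts only through the SMARCB1 libraries, so its adjusted p is no separate support for the rise. It is counted among the genes called higher in both SMARCB1 comparisons. THRSP, its paralogue, was at 0 to 1 counts in every library of every group. MID1IP1 overlaps MID1IP1-AS1 on the opposite strand, and reads of the 2 genes can be told apart only if the counting used strand, which is not given in the sources used here. Its promoter is the first of those printed above.

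The 3 acyl-CoA synthetases, which activate fatty acids for use in lipids, all rose. ACSL4, which prefers arachidonic acid and is known for its part in ferroptosis, was at 0.231, 0.363 and 0.156 CPM in GFP libraries, from 9 to 15 counts. In SMARCB1 libraries it was at 46.2, 46.4 and 46.6 CPM (log2 fold change 7.59, SE 0.11, adjusted p 2.21e-19). ACSL1 rose from 23.5, 21.8 and 22.2 CPM to 37.1, 39.0 and 38.3 CPM (0.76, SE 0.04, adjusted p 5.13e-11). ACSL3 rose from 160, 155 and 155 CPM to 206, 200 and 205 CPM (0.38, SE 0.03, adjusted p 5.31e-10). ACSL4 overlaps KCNE5 on the same strand in GENCODE 29, so its count could hold some reads of that gene.

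**Figure D2:**
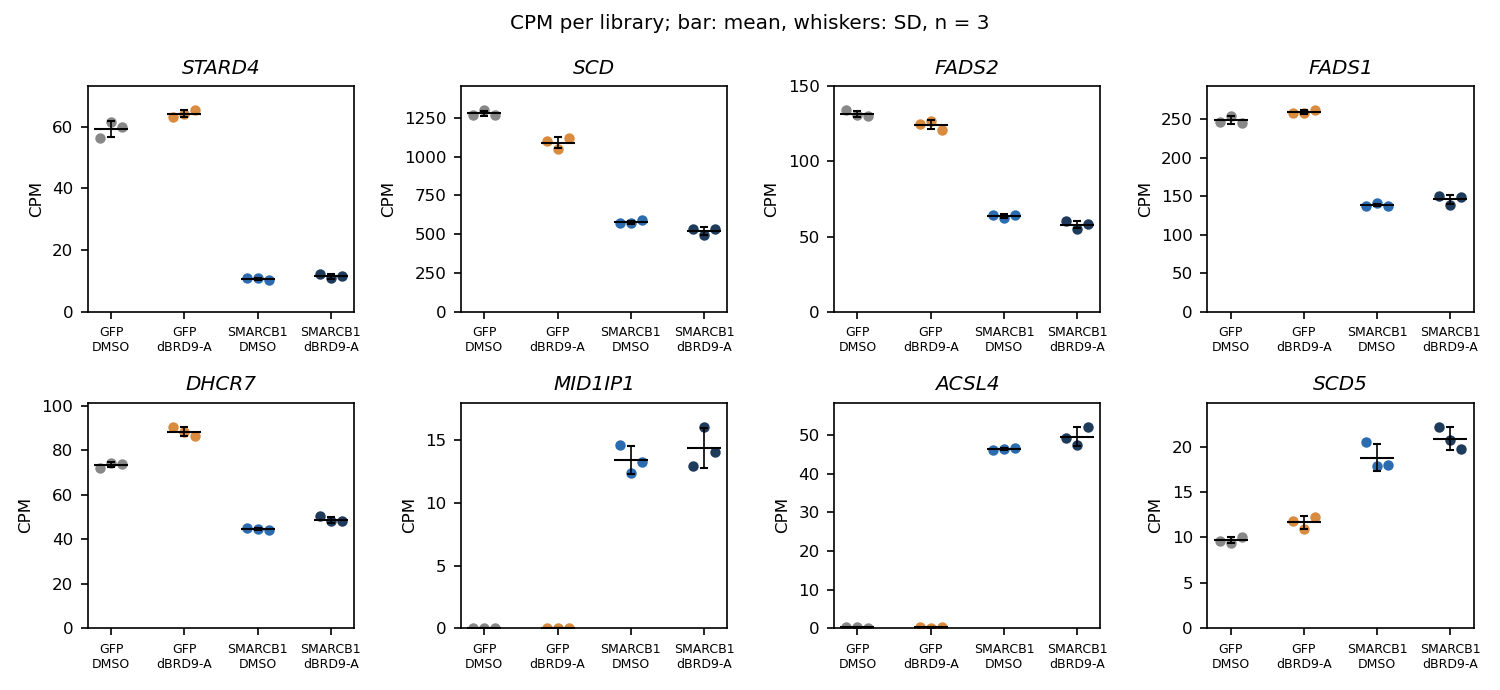
CPM in each of the 12 libraries (points) for 8 genes with large changes, with the mean (bar) and SD (whiskers, n = 3) of each group. STARD4, SCD, FADS2, FADS1 and DHCR7 are lower in all 6 SMARCB1 libraries than in any GFP library, and MID1IP1, ACSL4 and SCD5 are higher.

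The SMARCB1 effect was then measured a second time, between the 6 libraries of cells that had received dBRD9-A. These libraries do not enter the fold changes in DMSO as a compared group. All 12 libraries were fitted in a single model, however, and share its estimate of spread, so the tests are not fully separate. With dBRD9-A, SMARCB1 changed 36 of the 39 genes again, 10 higher and 26 lower. Of all genes tested 63.3% were called in this comparison, 33% higher and 30.4% lower. Both comparisons called 35 of the genes, all 35 in the same direction. Over the 37 genes other than MID1IP1 and ACSL4, the log2 fold changes had a Pearson r of 0.98, given as a description, since genes of a library share its depth and scaling. The share of all genes called in both comparisons and their r are not given here. This agreement is therefore not shown to be particular to the listed genes. The median over the 39 genes was -0.291, against 0.009 for all genes tested.

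With dBRD9-A present, all 7 mevalonate enzymes were lower in SMARCB1 than in GFP cells, by log2 fold changes of -0.67 (IDI1) to -0.19 (MVK). HMGCS1 was at 116, 115 and 112 CPM in GFP libraries and 79.8, 78.5 and 75.6 CPM in SMARCB1 libraries (-0.55, SE 0.03, adjusted p 2.74e-11). DHCR7 was at 90.6, 88.4 and 86.3 CPM against 50.4, 48.2 and 48.0 CPM (-0.86, SE 0.03, adjusted p 8.01e-14). Neither gene's groups overlapped, whereas those of EBP and HSD17B7 did. SREBF1 was higher by 0.48 (SE 0.05, adjusted p 5.72e-08), though not with spike-in scaling (0.15, adjusted p 0.0534), and SC5D and TM7SF2 by 0.36 (SE 0.05) and 0.32 (SE 0.10). Of the 18 cholesterol enzymes 16 were lower and 2 higher, and with spike-in scaling 16 were lower and 0 higher, around a shift of all genes of -0.32. With that scaling TM7SF2 turned to -0.01 and SC5D was at 0.04.

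With TMM scaling the larger changes were similar in size to those in DMSO, but with spike-in scaling several were not. On that scale the log2 fold changes in DMSO and with dBRD9-A were -0.67 and -1.15 for FADS1, -0.88 and -1.43 for FADS2, -0.98 and -1.39 for SCD, 0.93 and 0.39 for ACSL1, and 0.55 and 0.18 for ACSL3. With TMM, STARD4 had a log2 fold change of -2.47 (SE 0.05), from 63.1, 64.0 and 65.3 CPM to 12.4, 10.8 and 11.5 CPM. FADS2, SCD and FADS1 had -1.10, -1.07 and -0.83, each with an SE of 0.03. MID1IP1 was again at 0 counts in the GFP libraries and reached 13.0, 16.1 and 14.1 CPM in SMARCB1 libraries, at least 170-fold higher. ACSL4, SCD5, ACSL1 and ACSL3 had log2 fold changes of 7.35, 0.84, 0.72 and 0.51. INSIG1 had -0.50 (SE 0.05) and INSIG2 0.30 (SE 0.10), the latter with overlapping libraries and turning to -0.02 with spike-in scaling. SREBF2 had -0.02 (SE 0.05) and did not pass the test (adjusted p 0.756), but had -0.35 with spike-in scaling (adjusted p 0.000138). SCAP had -0.09 (SE 0.04, adjusted p 0.0299), with overlapping libraries, and 4 of 12 fits without a library lost the call.

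**Figure D3:**
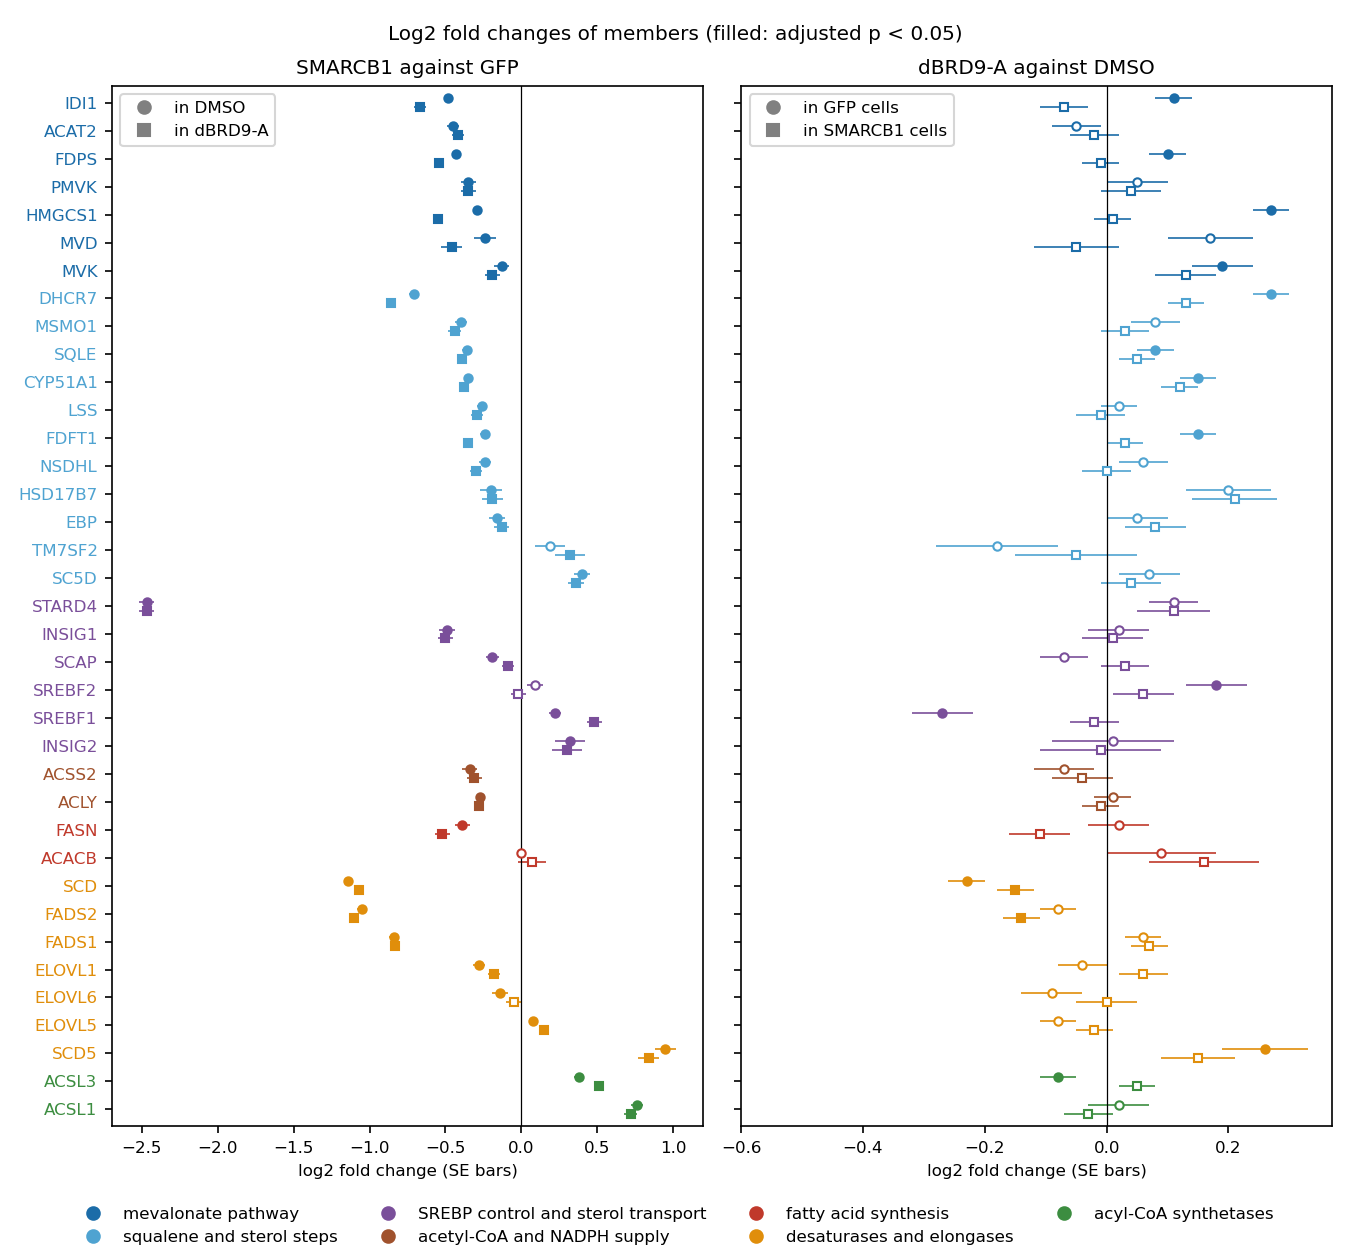
Log2 fold changes with SE bars of 37 tested genes for SMARCB1 against GFP (left, in DMSO and in dBRD9-A) and for dBRD9-A against DMSO (right, in GFP and in SMARCB1 cells). Filled points passed an adjusted p of 0.05, and MID1IP1 and ACSL4 are left out for their near-zero counts in GFP cells. The left axis runs to -2.47 for STARD4, while no point on the right lies beyond 0.27 in either direction.

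The next question was how these genes differed between dBRD9-A and DMSO in cells without SMARCB1. BRD9 protein is not measured in these data, so loss of BRD9 and other effects of the compound cannot be told apart. Changes in GFP cells were small, and several cholesterol enzymes rose while SREBF1 and SCD fell. Of the 39 genes 13 passed the test, 10 higher and 3 lower, with 15.9% of all genes tested called, 7.43% higher and 8.47% lower. The median log2 fold change of the 39 genes was 0.053, against 0 for all genes tested, and no gene of the 39 changed by an absolute log2 fold change of 1. With spike-in scaling, which shifted all genes by a median of 0.36, 34 of the 39 were higher and 0 lower, so the directions given for this comparison are relative to the bulk of genes.

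Of the 18 cholesterol enzymes 8 rose with dBRD9-A in GFP cells and none fell. HMGCS1 and DHCR7 had the largest rises, both 0.27 on the log2 scale (SE 0.03), with adjusted p of 5.78e-06 and 6.07e-06. HMGCS1 went from 94.1 to 96.5 CPM in DMSO to 112 to 116 CPM, and DHCR7 from 72.2 to 74.3 CPM to 86.3 to 90.6 CPM, without overlap. MVK went from 19.3, 19.7 and 20.1 CPM to 22.1, 23.2 and 22.1 CPM, a rise of 0.19 (SE 0.05) on the log2 scale. CYP51A1 rose by 0.15 (SE 0.03), FDFT1 by 0.15 (SE 0.03), IDI1 by 0.11 (SE 0.03), FDPS by 0.10 (SE 0.03) and SQLE by 0.08 (SE 0.03) on the log2 scale. Their replicates were separate between treatments. SQLE lost its call with DESeq2 (adjusted p 0.054), with no filter on low counts (0.234) and in 6 of 12 fits without a library, and FDPS with no filter (0.0502) and in 4 of those fits. IDI1 was lost in 4 of them and MVK in 2. The number of the 18 that rose was 4 without GFP DMSO replicate 1 and 4 without GFP dBRD9-A replicate 2, and HMGCS1, DHCR7, FDFT1 and CYP51A1 held their calls in all 12 fits without a library. This comparison shares the GFP DMSO libraries with that of SMARCB1 in DMSO, where HMGCS1 and DHCR7 had -0.29 and -0.71.

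SREBF1 had the largest fall in this comparison. It was at 104, 108 and 103 CPM in DMSO and 88.3, 87.7 and 84.7 CPM with dBRD9-A (log2 change -0.27, SE 0.05, adjusted p 0.00041), a value that spike-in scaling turned to 0.08 (adjusted p 0.288). SREBF2 rose by 0.18 (SE 0.05, adjusted p 0.0252), but its libraries at 61.9, 69.4 and 60.0 CPM in DMSO and 75.8, 66.0 and 73.8 CPM with dBRD9-A overlap. The call was lost in 4 of 12 fits that each left out a library. SCAP, INSIG1 and INSIG2 had log2 fold changes of -0.07, 0.02 and 0.01 and did not pass the test. Spike-in scaling turned SCAP to 0.29.

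Among fatty acid genes 3 passed the test. SCD went from 1270, 1300 and 1270 CPM to 1100, 1050 and 1120 CPM, with no overlap (-0.23, SE 0.03, adjusted p 7.02e-05), and spike-in scaling turned this to 0.13 (adjusted p 0.0862). SCD5 moved the other way, from 9.64, 9.38 and 10.1 CPM to 11.8, 10.9 and 12.3 CPM (0.26, SE 0.07, adjusted p 0.0168), a call that 4 of the 12 fits without a library lost. ACSL3 had -0.08 (SE 0.03, adjusted p 0.0486), which 10 of those 12 fits lost and which turned to 0.28 with spike-in scaling. MID1IP1 stayed at 0 counts with dBRD9-A, and ACSL4 was at 0.421, 0.184 and 0.282 CPM, overlapping its range in DMSO.

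In SMARCB1 cells dBRD9-A moved few of the genes. The test called 2 of the 39, 0 higher and 2 lower, with 1.93% of all genes tested called, 0.679% higher and 1.25% lower. SCD went from 571, 574 and 589 CPM to 537, 495 and 532 CPM (log2 change -0.15, SE 0.03, adjusted p 0.0195). FADS2 went from 64.2, 62.1 and 64.3 CPM to 60.1, 55.3 and 58.1 CPM (-0.14, SE 0.03, adjusted p 0.0443). Neither gene's groups overlapped, yet when only the 6 SMARCB1 libraries were fitted the adjusted p were 0.0777 and 0.166. Without SMARCB1 DMSO replicate 2 or SMARCB1 DMSO replicate 3 neither gene passed, and FADS2 lost its call in 10 of 12 such fits.

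None of the 18 cholesterol enzymes passed edgeR's test in SMARCB1 cells, while 4 had an unadjusted p under 0.05. The DESeq2 Wald test called 1 of them, CYP51A1 (log2 fold change 0.11, adjusted p 0.0378), which edgeR also called with no filter on low counts (0.12, adjusted p 0.0244) and in 1 of the 12 fits without a library. Their log2 fold changes ran from -0.07 to 0.21 with a median of 0.03. HMGCS1 was at 77.6, 75.4 and 79.5 CPM in DMSO and 79.8, 78.5 and 75.6 CPM with dBRD9-A (0.01, SE 0.03), and DHCR7 at 45.2, 44.8 and 44.4 CPM and 50.4, 48.2 and 48.0 CPM (0.13, SE 0.03, adjusted p 0.0557). DHCR7 libraries did not overlap and those of HMGCS1 did. SREBF1, SREBF2, SCAP, INSIG1, INSIG2 and MID1IP1 had log2 fold changes of -0.02, 0.06, 0.03, 0.01, -0.01 and 0.10, none past the test.

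Whether the response to dBRD9-A differed between the cell states was tested by the interaction, the change in SMARCB1 cells minus that in GFP cells. It passed for 3 of the 39 genes, 1 positive and 2 negative, with 3.8% of all genes tested called, 2.15% positive and 1.65% negative. With spike-in scaling, which shifted the interaction of all genes by a median of -0.49, 0 were positive and 37 negative. HMGCS1 had -0.26 (SE 0.04, adjusted p 0.00137) and held its call in each of the 12 fits without a library. IDI1 had -0.18 (SE 0.05, adjusted p 0.0481) and SREBF1 0.25 (SE 0.06, adjusted p 0.0328), and 10 and 9 of those 12 fits lost these calls. DHCR7 had -0.14 (SE 0.04, adjusted p 0.0927), and -0.64 with spike-in scaling (adjusted p 2.6e-06). With dBRD9-A, SREBF1 was at 121, 131 and 110 CPM in SMARCB1 libraries, a range that holds all 3 DMSO values, while IDI1 was at 72.0, 67.8 and 72.6 CPM there and at 112, 115 and 109 CPM in GFP libraries. Spike-in scaling turned SREBF1 to -0.24 (adjusted p 0.0278).

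**Figure D4:**
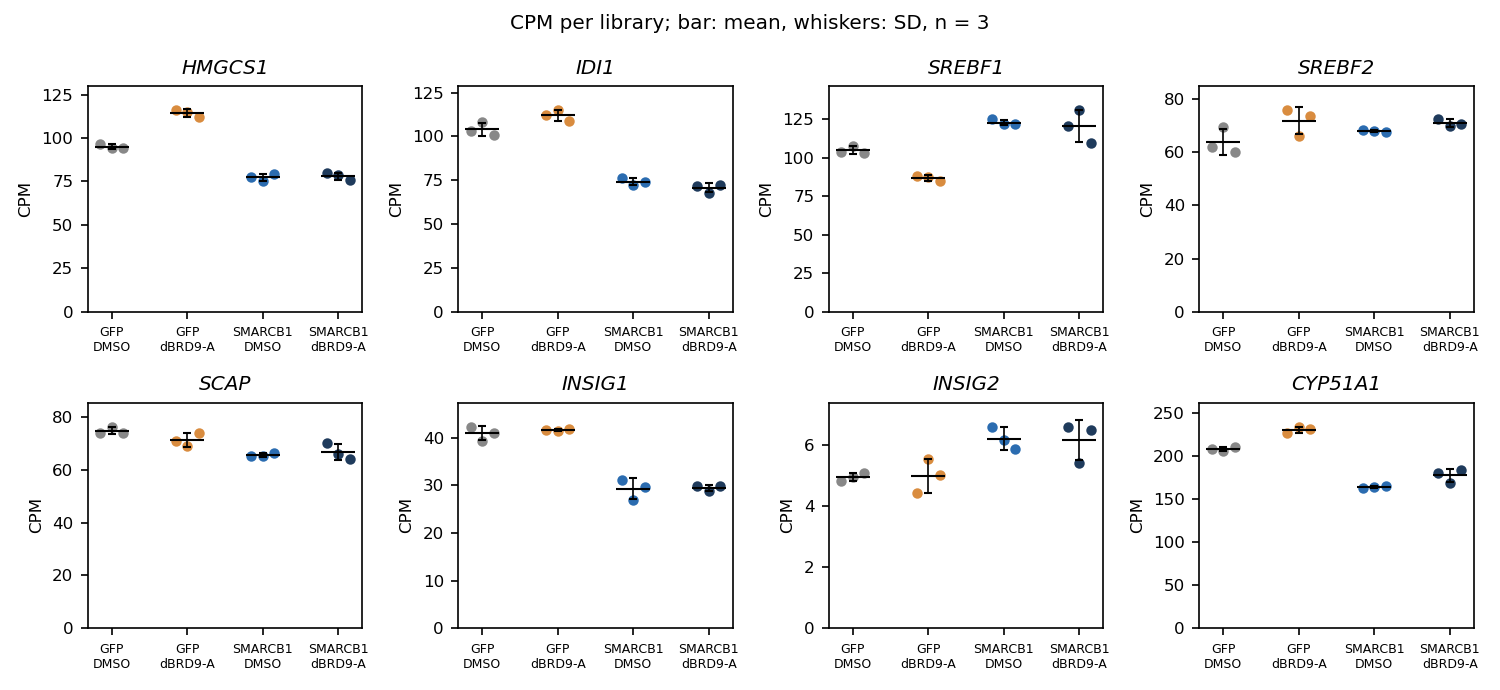
CPM in each of the 12 libraries (points) for 3 cholesterol enzymes and 5 genes of SREBP control, with the mean (bar) and SD (whiskers, n = 3) of each group. HMGCS1 is at 112 to 116 CPM in GFP cells with dBRD9-A, above 94.1 to 96.5 CPM in DMSO, and SREBF1 is lowest in that group at 84.7 to 88.3 CPM.

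Other genes of lipid metabolism are given for comparison, from lists made by function and counted with TMM scaling only. With SMARCB1 in DMSO 33.5% of all genes tested were higher and 31.6% lower, against which each count is to be read. Of 10 genes that process or retain SREBP proteins, 6 rose and 2 fell with SMARCB1 in DMSO, among them the site 2 protease gene MBTPS2 (log2 fold change 0.46, SE 0.07) and the ubiquitin ligase genes RNF139 (0.41, SE 0.03) and RNF145 (-0.39, SE 0.03). In GFP cells treated with dBRD9-A, RNF145 rose (0.29, SE 0.03) and 3 others fell, where 7.43% of all genes were higher and 8.47% lower. Of 9 tested genes of sterol uptake, storage and efflux, 5 rose and 4 fell with SMARCB1. LIPA, the lysosomal acid lipase that frees cholesterol from esters, rose by 2.21 (SE 0.09), NPC1, which exports cholesterol from lysosomes, rose by 0.63 (SE 0.03), and the oxysterol binding protein gene OSBP had -0.92 (SE 0.03). Of 13 tested genes of fatty acid oxidation, 10 fell and 1 rose with SMARCB1, with a median of -0.19. CPT1A, which commits fatty acids to the mitochondria, had the largest fall there (-1.23, SE 0.05). All of these values are log2 fold changes in DMSO unless dBRD9-A is named.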

How the data were processed

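The authors deposited 3 tables of RSEM expected counts per gene, not normalized, each with 2 groups. Libraries found in more than 1 table had identical values. STAR, RSEM 1.3.1, DESeq2 and the builds GRCh37 and hg19 are named in the submitters' processing notes, with no role or order. Per the labels' protocols, the library kit was TruSeq Stranded mRNA. The annotation release and the strand setting are not given in the sources used here.

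Counts were rounded (among the listed genes, 2 had fractional values). The 40 spike-in identifiers, 0.9634% to 1.302% of counts, were left out of library sizes. Genes passing edgeR's filterByExpr (minimum count 10) were tested, 15750 in all, with TMM factors of 0.9765 to 1.016. edgeR 4.0.16 (R 4.3.3) fitted all 12 libraries in a single quasi-likelihood model, with a coefficient for each group. Adjusted p are Benjamini-Hochberg values over all genes tested and come from this test unless another is named, and genes under 0.05 were called. SE were derived from the quasi-F statistic. CPM use TMM-scaled sizes. The script was tested on simulated data.

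No replicate pair agreed within sampling noise (chi-square per degree of freedom 2.89 to 23.76), so none was merged as the same library; this does not show separate cultures. Per comparison, the rule was to give libraries for the 5 largest rises and falls (4 for the interaction). It applied to called genes with a mean of at least 50 counts, and to MID1IP1, THRSP and genes of SREBP control. Several of these are given by log2 fold change only, among them ACSL1, FADS1 and INSIG1 for SMARCB1 against GFP with dBRD9-A. HMGCS1, IDI1, FASN and others given per library outside this rule were chosen after their values were seen. Genes and lists were chosen with earlier results of these data known. Symbols matched 51996 of 57820 identifiers, and overlapping genes are from GENCODE 29. Alternatives were DESeq2 1.42.0 (size factors and Wald test), spike-in scaling, other filters, fits of the compared groups alone, a replicate block and leaving out each library.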

Additional observations from a re-analysis of the deposited data

Results flagged for a closer look

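For 3 genes the response to dBRD9-A differed between GFP and SMARCB1 cells by the interaction test in edgeR with TMM scaling. HMGCS1 had an interaction of -0.26 on the log2 scale (adjusted p 0.00137), with all 3 GFP libraries higher with dBRD9-A than any in DMSO. IDI1 had -0.18 (adjusted p 0.0481) and SREBF1 had 0.25 (adjusted p 0.0328). Without GFP DMSO replicate 3 the adjusted p of IDI1 was 0.127, and without GFP dBRD9-A replicate 3 that of SREBF1 was 0.0934. These were the highest values over the 12 fits without a library. With spike-in scaling HMGCS1 was at -0.75, IDI1 at -0.68 and SREBF1 at -0.24 (adjusted p 0.0278), and 0 of the 39 genes were positive and 37 negative around a shift of all genes of -0.49.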

How the results depend on the processing

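The numbers of listed genes called for SMARCB1 against GFP were 33 to 36 without a library, both in DMSO and with dBRD9-A, against 36 in each. Those for dBRD9-A were 6 to 17 in GFP cells (13 with all libraries), 0 to 3 in SMARCB1 cells (2) and 1 to 5 for the interaction (3). The 6 came without GFP DMSO replicate 1, with 8 without GFP dBRD9-A replicate 2 or 3, the 0 without SMARCB1 DMSO replicate 2 or 3, and the 5 without SMARCB1 dBRD9-A replicate 2. A limit of 1 on the absolute log2 fold change left 5, 5, 0, 0 and 0 genes in these 5 comparisons. Spike-in scaling gave 34 genes for dBRD9-A in GFP cells and 37 for the interaction (all negative), with shifts of all genes of 0.36 and -0.49. In SMARCB1 cells the fit of the compared groups alone gave 0 and the replicate block 1. With spike-in scaling the median of all genes moved to 0.17 for SMARCB1 in DMSO, -0.32 for SMARCB1 with dBRD9-A and -0.14 for dBRD9-A in SMARCB1 cells, and the higher and lower genes were 11 and 14, 5 and 29, and 0 and 3.

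A change of sign was counted as a reversal only for a gene called in the main fit or under the alternative. All 15 reversals counted came with spike-in scaling. For SMARCB1 against GFP all 39 genes were counted. For dBRD9-A and the interaction, only genes called in any of those comparisons and SREBF1, SREBF2, SCAP, INSIG1 and INSIG2 were counted. MID1IP1 and ACSL4 were added for dBRD9-A only. With spike-in scaling 37 interactions of the 39 were called negative, while 15 were positive with TMM, so more genes changed sign than are listed here. For SMARCB1 in DMSO, MVK turned to 0.04, EBP to 0.01 and ELOVL6 to 0.03. For SMARCB1 with dBRD9-A, TM7SF2 turned to -0.01, INSIG2 to -0.02 and ELOVL5 to -0.18. For dBRD9-A in GFP cells, SREBF1 turned to 0.08, SCAP to 0.29, SCD to 0.13, FADS2 to 0.27 and ACSL3 to 0.28. For the interaction, SREBF1 turned to -0.24, SCAP to -0.40, SCD to -0.42 and ACSL3 to -0.37. Of the 2510 values counted in this way under the alternatives, 2351 kept their side of the threshold, 119 lost a call and 25 gained one. Genes called in neither fit were counted among the 2351 whatever their sign.

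Libraries with the same replicate number did not deviate together (correlations of -0.11 to 0.08 over 18 pairs, against -0.08 to 0.10 for other numbers), so no pairing by number was seen in the counts. Whether libraries with the same number were grown or prepared together cannot be told from these values. The replicate block left 36, 36, 11, 1 and 2 genes called in the 5 comparisons, and the interaction of IDI1 then had an adjusted p of 0.0777.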

Other observations

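Genes of glycerolipid synthesis and storage rose in part with dBRD9-A in GFP cells, where 6 of 12 were higher and 0 lower at an adjusted p under 0.05 in edgeR with TMM scaling, against 7.43% and 8.47% of all genes tested. Spike-in scaling shifted all genes by a median of 0.36 in this comparison and was not run on this list. CHKA, which starts phosphatidylcholine synthesis, had a log2 fold change of 0.33 (SE 0.04), and DGAT2, which makes triglycerides, 0.32 (SE 0.04). With SMARCB1 in DMSO 5 of the 12 rose and 3 fell (33.5% and 31.6% of all genes), with DGAT2 at -1.07 (SE 0.04), AGPAT3, an acyltransferase of phospholipid synthesis, at 0.92 (SE 0.05), and PLIN2, a coat protein of lipid droplets, at 0.68 (SE 0.04). In SMARCB1 cells dBRD9-A changed 0 of the 12.

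With SMARCB1 in DMSO, 7 of 12 tested other genes of lipid synthesis outside the main list rose and 4 fell. Of all genes, 33.5% rose and 31.6% fell. Elongases were among the genes of this list that changed. With SMARCB1 in DMSO, ELOVL2, which extends polyunsaturated fatty acids, had a log2 fold change of 2.82 (SE 0.06) and ELOVL4, which makes very long chains, had -2.21 (SE 0.06), and ELOVL7 had -1.16 (SE 0.05). With dBRD9-A present the values of ELOVL2 and ELOVL4 were 2.91 (SE 0.06) and -2.04 (SE 0.06). Of 12 tested genes of the non-sterol isoprenoid branch, which uses farnesyl pyrophosphate for prenyl groups and ubiquinone, 4 rose and 4 fell with SMARCB1 in DMSO, near the 33.5% and 31.6% of all genes, and PDSS1, a ubiquinone synthesis gene, had the largest change (-0.98, SE 0.05).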
